A study of Mus musculus with 10 samples.

Results

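Expression was compared between 3 mouse arrays titled as neural stem cells (NSC) derived from induced pluripotent stem (iPS) cells and 3 arrays titled as the iPS cells themselves. These 6 arrays are part of a series of 10, in which the other 4 hold NSC from adult brain, and they were taken by their titles; the comparison itself was picked with earlier results of these data known. All 18193 genes with a probe set of their own are described, each by its brightest probe set. Values are on the log2 scale, so that a difference of 1 is a 2-fold change, and every difference is given as the arrays labelled iPS-derived NSC minus the arrays labelled iPS, with the standard error (SE) from limma and n = 3 arrays in each group.

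All groups came from NSC of the adult brain of OG2 Rosa26 neo/lacZ mice mated to ICR females. The OG2 mice carry the Oct4-eGFP transgene, a green reporter of Oct4 activity. For the iPS cells the NSC were infected with a pMX-based retrovirus carrying Oct4 cDNA and moved to embryonic stem cell medium with leukaemia inhibitory factor (LIF). Green colonies were then picked by hand and grown on irradiated mouse embryonic fibroblasts (MEF). The iPS-derived NSC were differentiated from such cells after a published protocol with modifications, so that by the labels both groups carry the retroviral Oct4. The brain NSC were neither infected nor reprogrammed. The labels do not say how many iPS lines were used, nor whether replicate samples were separate cultures, so p-values measure the spread between these samples, which may be technical. The sources used here do not say whether MEF were removed before RNA extraction.

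The marker genes went against both titles. The mean over the pluripotent markers Pou5f1, Nanog, Zfp42, Esrrb, Dppa5a and Tdgf1 was 12 to 12.11 in the arrays labelled iPS-derived NSC, 4.58 to 4.63 in those labelled iPS and 4.62 to 4.76 in those labelled brain NSC. The mean over the neural markers Fabp7, Olig2, Slc1a3, Nes, Ptprz1 and Sox9 was 6.01 to 6.18, 11.8 to 11.9 and 11.6 to 11.9 in the same order. The arrays labelled iPS-derived NSC thus held the pluripotent markers, and those labelled iPS held the neural ones. Pou5f1, which encodes Oct4, read 13.41, 13.00 and 13.45 in the arrays labelled iPS-derived NSC and 4.49, 4.78 and 4.72 in those labelled iPS, and whether its probe set also reads the retroviral copy was not tested. The deposited labels were kept, so "higher" and "lower" below always mean higher or lower in the arrays labelled iPS-derived NSC, and every direction is that of the deposited titles, against the markers.

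As background, embryonic stem and iPS cells are held in an undifferentiated state by a network of transcription factors around Oct4, Sox2 and Nanog, and grow as compact, cadherin-bound epithelial colonies. Cultured NSC resemble radial glia, the progenitors of neurons and glia, and depend on growth factor receptors and on factors of the Sox, Nfi and POU families. Sox2 works in both cell types.

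Genes count as called where limma gave an adjusted p under 0.05 (Benjamini-Hochberg over all genes) together with a difference of at least 2-fold. By this rule 1970 genes were called higher, 10.8% of the 18193, and 2628 were called lower, 14.4%, so that 25.3% were called in all. The remaining 13595 genes were not called, and 6525 of them had an adjusted p under 0.05 with a difference below 2-fold. The median difference of all genes was 0.12, and the quartiles lay at -0.37 and 0.44. No called gene had arrays that overlapped between the groups. A further 8048 genes did not overlap either and were not called, so separation of 3 arrays from 3 was common. The highest adjusted p of any called gene was 0.0157. For the called genes named below it was at most 0.00442 unless one is given.

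Lower genes outnumbered higher ones at 4-fold too, were close to them in number at 16-fold and were fewer from 64-fold on. Of the called genes, 738 were at least 4-fold higher and 1120 at least 4-fold lower. At 16-fold the counts were 206 and 221, at 64-fold 49 and 42, and at 256-fold 10 and 6. The genes with the greatest differences were the transcriptional regulator Dppa2, higher by 9.45 ± 0.10, and Fabp7, lower by 9.75 ± 0.11. Another probe set of Dppa2 became the brightest when any 1 array labelled iPS-derived NSC was left out, with a difference of 8.36 to 8.40.

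**Figure D1:**
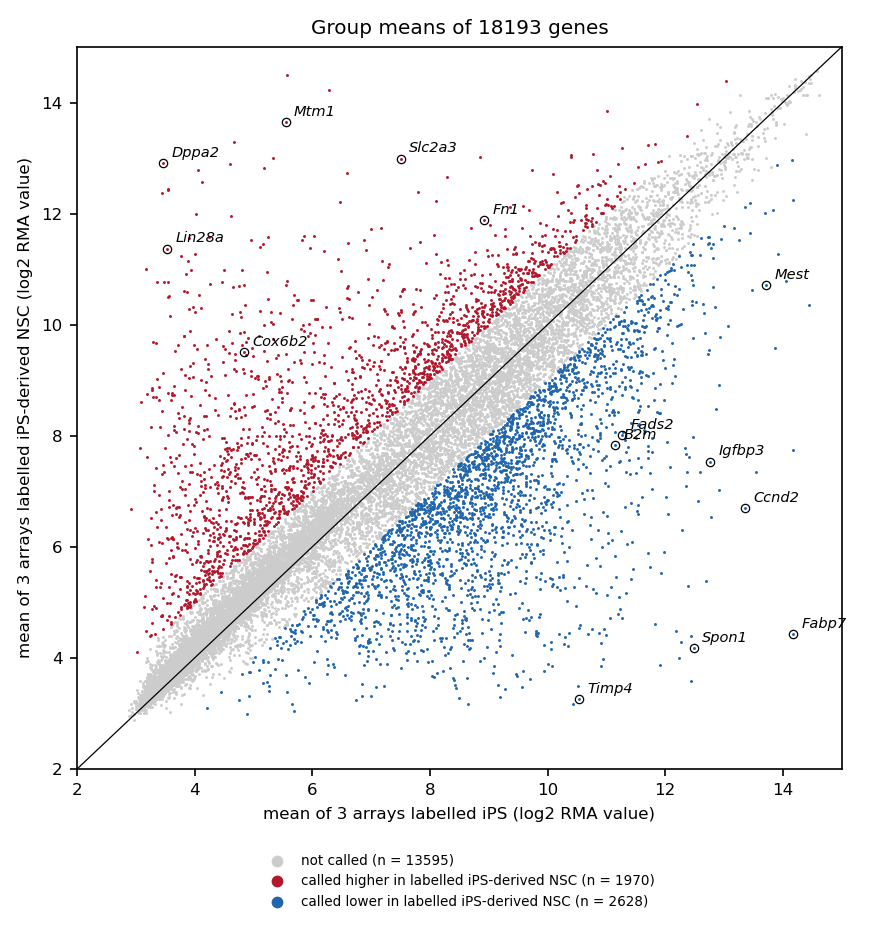
Mean log2 value of each of 18193 genes in the 3 arrays labelled iPS (horizontal axis) and in the 3 labelled iPS-derived NSC (vertical axis), with the line of equal values. The 1970 genes called higher lie above the line and the 2628 called lower lie below it, and circles mark some of the genes named in the text.

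A smaller set of genes went from one end of the array's scale to the other. In 82 genes every array labelled iPS lay below its lower quartile of all probe sets while every array labelled iPS-derived NSC lay above its upper quartile, and in 41 genes the reverse held. Of the 82, 66 were also below the lower quartile in all 4 arrays labelled brain NSC, and 0 were above the upper quartile in any of them. Of the 41, 36 were above the upper quartile in all 4. The 82 include variant ribosomal proteins as well as stem cell factors. Rps4l, a copy of the ribosomal protein gene Rps4x, read 12.82, 12.80 and 12.74 against 4.03, 4.21 and 3.93, the arrays labelled iPS-derived NSC being given first here and throughout. Rpl39l, a testis-enriched variant of the ribosomal protein Rpl39, read 12.04, 11.82 and 12.14 against 3.97, 4.19 and 3.91. Both genes have close copies elsewhere in the genome, so their probe sets may read more than 1 gene. The 41 include Gpm6a, a neuronal membrane glycoprotein, which read 3.41, 3.56 and 3.75 against 12.38, 12.45 and 12.50, and Timp4, an inhibitor of matrix metalloproteases, which read 3.30, 3.62 and 2.86 against 10.58, 10.44 and 10.58. The quartile rule that picked these 4 genes also fixed the distance between their groups, so that distance is only a description.

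Array quality was read in 4 measures. The gap between 3′ and 5′ probe sets was 0.42 to 0.57 against 0.50 to 0.67 for Actb and -0.12 to 0.01 against -0.11 to -0.01 for Gapdh (exact two-sided permutation p = 0.6 and 0.9). The mean of the hybridisation controls was 10.3 to 10.8 against 10.7 to 10.9 (exact p = 0.8), and each of these 3 had an adjusted p of 0.9. The interquartile range of all probe sets was narrower in every array labelled iPS-derived NSC, at 3.38 to 3.47 against 3.81 to 3.89, with an exact permutation p of 0.1, the smallest that 3 against 3 arrays allow, and of 0.4 after adjustment over these 4 tests. Over all genes, arrays of a group correlated (Pearson) at 0.994 to 0.996 and at 0.997 to 0.998, and arrays of different groups at 0.860 to 0.862.

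The lists below were drawn up with earlier results of these data known, so their directions are no independent evidence. Of all genes 10.8% were called higher and 14.4% lower, so a list with calls in both directions does not by that stand apart. Across the 61 lists, 1529 distinct genes were measured, of which 332 were called higher, 373 lower and 824 neither. The pluripotent state lists held 73 genes called higher and 11 lower of 121, and the neural lists 28 higher and 108 lower of 292. The other themes were mixed: 34 and 56 of 171 for cell signalling, 41 and 48 of 157 for surface and matrix, 47 and 71 of 285 for metabolism, 83 and 67 of 385 for nucleus and growth, and 29 and 21 of 132 for immune and stromal genes. In bulk RNA of this kind, fewer cells of a type and less RNA per cell cannot be told apart.

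**Figure D2:**
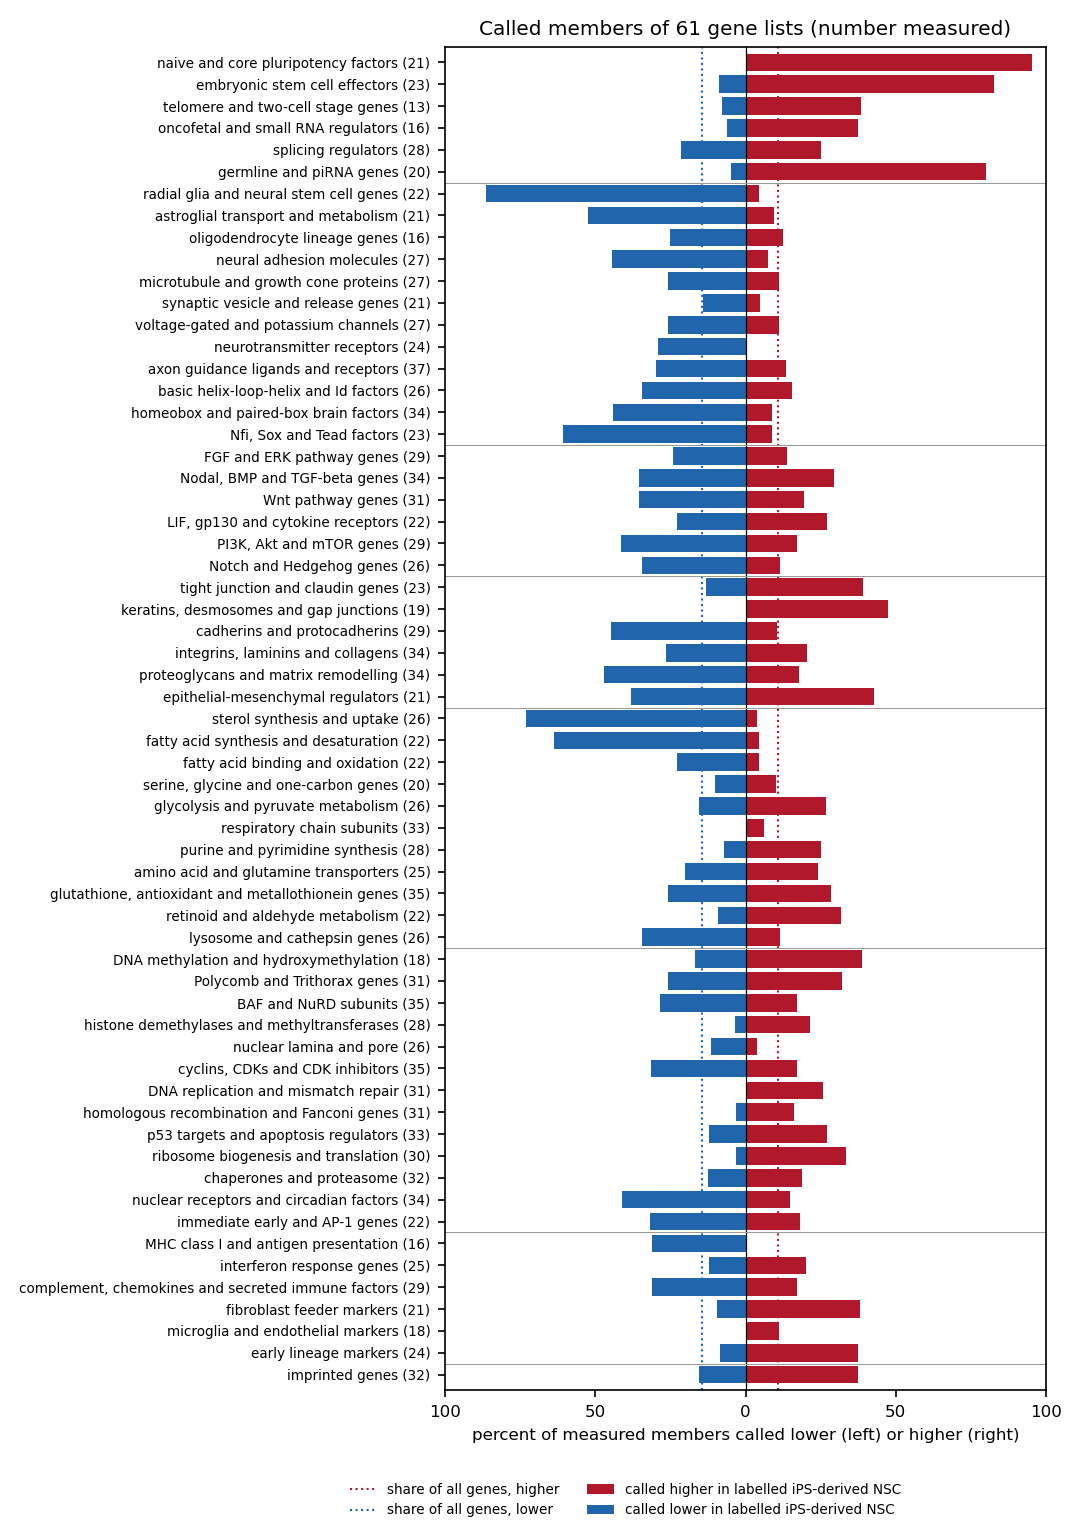
Share, in percent, of the measured members of each of 61 gene lists that was called higher (right) or lower (left) in the arrays labelled iPS-derived NSC, with the number measured in brackets and dotted lines at the shares over all 18193 genes (10.8% and 14.4%). The naive pluripotency, stem cell effector and germline lists extend to the right, and the radial glia, sterol and fatty acid synthesis lists to the left.

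Among the core factors of the pluripotent state, 20 of 21 measured genes were higher, with a median difference of 4.03, and Sox2 was the 1 not called. Nr0b1, an orphan nuclear receptor of the naive state, read 9.61, 9.43 and 9.83 against 3.56, 3.77 and 3.81. Sall4, a zinc finger factor of the same network, read 13.05, 12.95 and 13.01 against 5.29, 5.41 and 5.30, and Klf4, a Krüppel-like factor, 11.31, 11.26 and 11.39 against 6.38, 6.02 and 6.21. The groups did not overlap in any of the 3, and brain NSC arrays lay with those labelled iPS, at 3.53 to 3.85, 5.18 to 5.49 and 6.27 to 6.84. Esrrb, a nuclear receptor that sustains self-renewal, was higher by only 1.70 ± 0.10 at its brightest probe set, while its other probe sets gave 2.75 to 5.65. The downstream effectors of the state were higher in 19 of 23 and lower in 2. Eras, a Ras protein made in embryonic stem cells, was higher by 7.41 ± 0.10, and L1td1, a protein of RNA granules descended from a transposon, by 8.46 ± 0.12. The lower ones were Fut9, the fucosyltransferase that makes the SSEA-1 antigen, by 3.92 ± 0.14, and Jam2, a junction protein, by 1.11 ± 0.11, whose probe sets were called in opposite directions.

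Regulators of developmental timing and of RNA split within their lists. Lin28a, which blocks the maturation of let-7 microRNAs, read 11.68, 11.17 and 11.26 against 3.49, 3.55 and 3.55, and the 3 arrays of each group were clear of the other. Of the 16 oncofetal and small RNA genes measured, 6 were higher and 1 lower, the last being Ago1, an Argonaute protein, by 1.36 ± 0.15. Telomere and early embryo genes were higher in 5 of 13, among them Terf1, a telomere repeat binding protein, by 2.50 ± 0.14. The 1 called lower was Terf2, of the same family, by 1.02 ± 0.13, or by 0.92 to 0.98 and not called without replicate 1 of the arrays labelled iPS or replicate 1 or 2 of those labelled iPS-derived NSC. Nor was Terf2 called after quantile normalization (-0.89) or with averaged probe sets (-0.705). Among 28 splicing regulators, 7 were higher and 6 lower. Esrp1, which sets epithelial splice patterns, was higher by 5.00 ± 0.14. Celf2, Nova1 and Mbnl1, splicing regulators of brain and muscle, were lower by 5.10 ± 0.11, 4.18 ± 0.15 and 3.53 ± 0.10. The polypyrimidine tract binding proteins were not called, with differences of 0.26 ± 0.23 for Ptbp1 and -0.89 ± 0.10 for the neural Ptbp2.

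Genes of the germline and of the piRNA pathway, which silences transposons in germ cells, were higher in 16 of 20, with a median of 4.65. Tex19.1, a protein of germ cells and early embryos, read 12.90, 12.85 and 12.95 against 4.60, 4.46 and 4.74, a 316-fold difference. Stra8, the factor of meiotic entry, read 11.47, 11.58 and 11.75 against 5.78, 5.85 and 5.92, and Syce2, a part of the synaptonemal complex that joins meiotic chromosomes, 11.33, 11.50 and 11.35 against 5.22, 4.97 and 5.13. Brain NSC arrays lay at 4.55 to 4.60, 5.65 to 6.09 and 4.87 to 5.55, with the arrays labelled iPS. The germ cell helicase Ddx4 and the RNA-binding protein Dazl were higher by 5.55 ± 0.12 and 4.59 ± 0.13, and the PIWI protein Piwil2 by 4.81 ± 0.12. Tdrkh, a mitochondrial partner of PIWI proteins, was the 1 member called lower, by 2.60 ± 0.17. The piRNA genes Tdrd1 and Asz1 and the bromodomain gene Brdt were not called, at 0.89 ± 0.17, 0.03 ± 0.13 and 0.45 ± 0.12.

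The promoters of these genes shared a sequence feature that the choice of the arrays did not use. RefSeq promoters of the mouse build GRCm38.p6, spanning 250 bases before to 50 after each start, were searched for the canonical E-box CACGTG, a palindrome that reads the same on both strands. It lay in 15 of 24 germline promoters (62.5%), belonging to 12 of 18 genes, against 8.73% of all 18106 promoters, 11.1% of those of genes called higher and 8.46% of those called lower. The sterol promoters described below had it in 24.1%. Median GC content was 60.8% in the germline promoters and 58.3% in all. The motif holds a CpG site, and the germline promoters were richer in these. An observed to expected CpG ratio of at least 0.6 was found in 79.2% of them and in 54.7% of all. Whether this accounts for the share with a match was not tested. Other motifs were searched in the same promoters, and only some are given here. Of the 14 called-higher germline genes with a promoter, 10 held a match. The 6 with the greatest differences among these 10 are shown to place the motif, as 60 bases each from before the start site, read 5′ to 3′ on the gene's own strand with the match in capitals.
Syce2, chr8:84872143-84872202, plus strand: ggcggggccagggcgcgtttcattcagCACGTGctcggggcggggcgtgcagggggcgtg
Mael, chr1:166238935-166238994, minus strand: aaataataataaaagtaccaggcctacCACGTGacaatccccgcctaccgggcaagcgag
Ddx4, chr13:112652311-112652370, minus strand: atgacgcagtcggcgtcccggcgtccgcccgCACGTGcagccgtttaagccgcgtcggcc
Stk31, chr6:49395457-49395516, plus strand: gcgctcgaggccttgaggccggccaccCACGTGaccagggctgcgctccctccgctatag
Slc25a31, chr3:40708751-40708810, plus strand: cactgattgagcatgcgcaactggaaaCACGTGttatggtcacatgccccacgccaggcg
Hormad1, chr3:95559593-95559652, plus strand: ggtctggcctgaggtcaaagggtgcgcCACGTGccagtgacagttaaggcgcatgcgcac

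The matches shown began between 29 bases (Ddx4) and 223 bases (Mael) before the start site. Mael, a piRNA factor of the nuage, was higher by 5.66 ± 0.10, and Slc25a31, the adenine nucleotide carrier of testis mitochondria, by 4.91 ± 0.13. Stk31, a germ cell kinase-like protein, was higher by 5.53 ± 0.11, and Hormad1, which marks unpaired meiotic chromosomes, by 4.72 ± 0.19. By contrast the octamer ATTTGCAT was in 1 of 20 promoters of the core pluripotency factors (5%), against 1.39% of all, and in 0 of the 24 germline promoters. A match in these windows describes letters and not binding.

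The neural stem cell programme ran the other way. Of 22 radial glia and neural stem cell genes, 19 were lower, 1 higher and 2 not called, with a median of -3.93. Pax6, a paired-box factor of radial glia, read 4.47, 3.98 and 4.51 against 8.58, 8.56 and 8.78, and Sox1, an early neural factor, 4.04, 4.02 and 4.54 against 8.32, 8.20 and 8.22. Egfr, the receptor for the growth factor on which cultured NSC depend, read 4.30, 4.48 and 4.50 against 10.88, 10.54 and 10.67. All 3 were low in every array labelled iPS-derived NSC, with brain NSC at 8.41 to 8.56, 8.19 to 8.37 and 11.44 to 11.98. The intermediate filament proteins Nes and Vim were lower by 2.79 ± 0.17 and 2.65 ± 0.12, with Vim still at 11.27 in the arrays labelled iPS-derived NSC. The exception was Prom1, a membrane protein found on many stem cells, which was higher by 2.25 ± 0.12.

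Transcription factors of the brain were mostly lower or not called. Of 23 Nfi, Sox and Tead factors, 14 were lower and 2 higher. The nuclear factor I genes Nfix, Nfib and Nfia, which drive glial differentiation, were lower by 7.32 ± 0.17, 5.36 ± 0.14 and 5.30 ± 0.11. Nfix read 5.18, 5.19 and 5.75 against 12.74, 12.58 and 12.77, with no overlap. Of 34 homeobox and paired-box factors, 15 were lower and 3 higher. Zic1, a zinc finger factor of the dorsal neural tube, was lower by 7.07 ± 0.18, and Pou3f3, a POU factor of neural progenitors, read 4.37, 4.42 and 4.83 against 10.63, 10.44 and 10.53. Otx2, which patterns the forebrain and also marks the epiblast, was higher by 2.73 ± 0.17. Among 26 basic helix-loop-helix and Id factors, Olig1 and Olig2 of the oligodendrocyte lineage were lower by 6.45 ± 0.11 and 6.25 ± 0.19 and Id2 by 4.63 ± 0.11, whereas Id1, a target of BMP signals, was higher by 1.56 ± 0.12 and Tcf15, a factor of early mesoderm and epiblast, by 4.06 ± 0.13.

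The machinery of neurons was less uniform than that of radial glia. Neurotransmitter receptors were lower in 7 of 24 and higher in 0, with a median of 0.03, so most of the list was not called. The glutamate receptor Grm5 read 3.91, 3.79 and 4.23 against 11.01, 10.88 and 10.94, and the GABA receptor subunit Gabrg1 3.77, 3.36 and 3.73 against 9.72, 9.64 and 9.72, each without overlap. Synaptic vesicle genes were lower in 3 of 21, near the 14.4% of all genes, and higher in 1. The latter was Nsf, an ATPase of membrane fusion, by 1.06 ± 0.10, or 0.98 and not called without replicate 1 of the arrays labelled iPS-derived NSC. With averaged probe sets Nsf was at 0.64 and not called. Channels were higher in 3 of 27, near the 10.8% of all genes, and lower in 7. The potassium channel Kcnd3 was lower by 6.41 ± 0.17, and Kcnj10, the potassium channel of astrocytes, by 3.74 ± 0.23. Of 27 neural adhesion molecules, 12 were lower and 2 higher. Nrcam was lower by 5.76 ± 0.12, while Cntnap2, a neurexin-related adhesion protein, was higher by 4.55 ± 0.11. The other probe sets of Cntnap2 gave only 0.14 to 0.28.

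Some proteins best known from neurons were called higher. Tubb3, the neuronal beta-tubulin, read 9.50, 8.97 and 9.46 against 3.78, 4.09 and 4.05, and Stmn2, a microtubule regulator of growth cones, 10.16, 10.08 and 9.92 against 5.41, 5.29 and 5.17. In both the groups were far apart, and brain NSC stood at 4.08 to 4.28 and 5.01 to 5.35. Map2, the microtubule-associated protein of dendrites, went the other way, at 3.90, 4.15 and 3.91 against 12.21, 12.27 and 12.23, and Dpysl2, a growth cone protein, was lower by 5.02 ± 0.13. The other probe set of Dpysl2 gave -0.05. In total 3 of 27 microtubule and growth cone genes were higher, near the 10.8% of all genes, and 7 lower. Axon guidance genes were higher in 5 and lower in 11 of 37. The ephrin receptor Epha2 was higher by 3.75 ± 0.24, and the semaphorins Sema6d and Sema6a were lower by 5.99 ± 0.16 and 4.78 ± 0.19.

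In astrocyte transport and metabolism, 11 of 21 genes were lower and 2 higher. Slc4a4, a bicarbonate cotransporter, and Mlc1, a membrane protein of astrocyte endfeet, were lower by 5.92 ± 0.10 and 6.35 ± 0.30. Apoe, the lipid carrier that astrocytes secrete, was higher, with 11.16, 10.63 and 10.66 against 7.13, 6.73 and 7.0, and brain NSC lay between at 7.78 to 8.47. Oligodendrocyte lineage genes were higher in 2 and lower in 4 of 16. Bcas1, a myelin-associated protein, was lower by 4.74 ± 0.11, while Pdgfra, the receptor of oligodendrocyte precursors and of early mesenchyme and endoderm, was higher by 2.40 ± 0.17. The other probe sets of Bcas1 gave only -0.53 to -0.22.

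Signalling genes were called in both directions in all 6 lists, as were genes at large (10.8% higher and 14.4% lower). In the LIF pathway, on which mouse embryonic stem cells rely, 6 of 22 genes were higher and 5 lower. Socs3, the feedback inhibitor of LIF signals, read 11.25, 11.35 and 11.42 against 6.97, 6.73 and 7.0, with brain NSC at 6.55 to 6.88. The kinase targets Pim1 and Pim3 were higher by 3.78 ± 0.18 and 2.76 ± 0.18. The kinases that carry the signal were lower, Jak2 by 3.29 ± 0.13 and Jak1 by 1.25 ± 0.12, and so was Kitl, the ligand of the Kit receptor, by 6.11 ± 0.12. The inhibitor and the Pim targets thus lay on the other side of the comparison from the kinases.

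In the Nodal, BMP and TGF-beta pathway, 10 of 34 genes were higher and 12 lower. Nodal itself, a TGF-beta family ligand of the early embryo, read 10.23, 10.03 and 10.48 against 5.02, 5.26 and 5.06. Its coreceptor Tdgf1 was higher by 8.92 ± 0.09 and its antagonist Lefty2 by 4.40 ± 0.18, as was the related ligand Gdf3 by 4.40 ± 0.12. Among the receptors and transducers, Tgfbr2 was lower by 4.61 ± 0.14, Bmpr2 by 2.53 ± 0.12 and Smad5 by 3.29 ± 0.13, and the ligand Tgfb2 was lower by 3.87 ± 0.20. The named rises were thus Nodal, its partners and a relative, and the named falls were a TGF-beta ligand and receptors and a transducer of TGF-beta and BMP signals.

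The FGF and ERK list held 4 higher and 7 lower of 29, the former near the 10.8% of all genes. Fgf4, the growth factor that embryonic stem cells make for themselves, was higher by 1.94 ± 0.12 at its brightest probe set and by 4.88 to 6.34 at its others. The receptors Fgfr1 and Fgfr3 were lower by 2.14 ± 0.17 and 1.98 ± 0.14. The feedback genes Spry1 and Dusp6 were lower by 3.51 ± 0.19 and 2.04 ± 0.10. Erbb3, a receptor of the Egfr family, was higher by 3.68 ± 0.11 where Egfr was lower. The other probe set of Erbb3 gave 0.10, and those of Egfr gave -5.33 to 0.28. Fgf1 was called higher at its brightest probe set by 1.42 ± 0.13, but its other probe sets gave -2.13 to -1.43, and it took the sign of those when any 1 array labelled iPS-derived NSC was left out (-2.41 to -1.76), so no direction can be given for it.

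Wnt genes were higher in 6 and lower in 11 of 31. The ligands Wnt5a and Wnt7a were lower by 5.81 ± 0.13 and 4.58 ± 0.17, and Dkk1, a secreted antagonist, was higher by 3.96 ± 0.12. The Frizzled receptors divided: Fzd7 and Fzd5 were higher by 2.44 ± 0.12 and 2.36 ± 0.12, and Fzd3 and Fzd9 lower by 5.04 ± 0.16 and 4.95 ± 0.20. In the Notch and Hedgehog list 3 of 26 were higher, near the 10.8% of all genes, and 9 lower. The receptor Notch1 was lower by 3.68 ± 0.15 and Rbpj, the DNA-binding partner of activated Notch, was higher by 2.36 ± 0.09. Gas1, a coreceptor for Hedgehog, read 6.94, 7.26 and 6.87 against 12.96, 12.87 and 12.93, while Gli2, a transcription factor at the end of that pathway, was higher by 2.15 ± 0.11 and Smo, its membrane transducer, lower by 2.81 ± 0.23.

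In the PI3K and insulin-like growth factor pathway, 5 of 29 genes were higher and 12 lower. The receptor substrate Irs1, the insulin receptor Insr and the kinase Akt1 were lower by 4.63 ± 0.15, 3.28 ± 0.15 and 2.65 ± 0.22. The other probe sets of Insr gave 0.02 to 0.15, and those of Akt1 gave -2.93 to 0.26. Igfbp3, a secreted binding protein, read 7.58, 7.37 and 7.65 against 12.74, 12.82 and 12.75, with no overlap. The mTOR regulators Deptor and Rictor were higher by 1.65 ± 0.14 and 1.16 ± 0.18.

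At the cell surface, the epithelial junction genes that were called were mostly higher. Of 19 keratins, desmosome and gap junction genes, 9 were higher and 0 lower, and of 23 tight junction genes 9 were higher and 3 lower. Krt18 and Krt8, the keratins of simple epithelia, read 8.59, 8.19 and 8.15 against 3.99, 3.90 and 3.86 and 9.57, 9.09 and 9.33 against 5.71, 5.67 and 5.67. Pkp2, a desmosome plaque protein, was higher by 6.03 ± 0.24, F11r, a tight junction protein, by 5.03 ± 0.12, and Cldn6, a claudin of embryonic epithelia, by 3.76 ± 0.10. The desmosomal cadherin Dsg2 was higher by 6.35 ± 0.11, with 1.75 to 6.11 at its other probe sets and 1.87 without replicate 1 of the arrays labelled iPS-derived NSC.

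Cadherins were called lower more often than higher: 13 of 29 were lower and 3 were higher. Cdh1, the cadherin of epithelia, read 12.49, 12.36 and 12.42 against 3.68, 3.48 and 3.48, and Cdh2, the cadherin of neural tissue, 4.95, 5.51 and 4.92 against 11.03, 11.01 and 11.01. In both genes the groups were separated by more than the spread of any array. Fat4, a giant cadherin of planar polarity, was lower by 5.48 ± 0.10, and Cdh13 and Cdh4 by 4.78 ± 0.14 and 4.19 ± 0.16. Regulators of the epithelial to mesenchymal change were higher in 9 and lower in 8 of 21. The epithelial factor Grhl2 was higher by 4.04 ± 0.11, and the mesenchymal factors Zeb1 and Zeb2 were lower by 5.24 ± 0.12 and 4.40 ± 0.15. The other probe sets of Grhl2 gave 0.41 to 1.24.

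Matrix genes were called in both directions. The laminin chain Lama1 read 8.36, 8.19 and 8.12 against 3.85, 4.01 and 3.83, nidogen Nid1 9.32, 9.21 and 8.71 against 5.32, 5.03 and 4.82 and fibronectin Fn1 11.99, 11.71 and 11.94 against 9.09, 8.66 and 9.02. In all 3 every array labelled iPS-derived NSC was above every other array, brain NSC included, which stood at 3.73 to 4.35, 5.25 to 6.02 and 9.23 to 9.81. The chondroitin sulphate proteoglycans Bcan and Ncan, of the brain's matrix, were lower by 5.74 ± 0.12 and 4.97 ± 0.20, and Spon1, a floor plate adhesion protein, by 8.32 ± 0.15. Spon1 had other probe sets, which gave -3.08 to -0.37. Integrin Itgb8 read 3.18, 3.09 and 3.24 against 10.62, 10.15 and 10.51. Of 34 integrins, laminins and collagens, 7 were higher and 9 lower, and of 34 proteoglycans and remodelling genes 6 were higher and 16 lower. Some fibroblast markers were higher as well, 8 of 21 with 2 lower, as described with the feeder genes below. Their part in the matrix rises was not tested.

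In metabolism, most genes of sterol and fatty acid synthesis were lower. Of 26 genes of sterol synthesis and uptake, 19 were lower, 1 higher and 6 not called, with a median of -1.45, where all genes had 0.12. The sterol reductase Tm7sf2 read 7.27, 7.33 and 7.21 against 10.22, 10.41 and 10.34, and the sterol carrier Stard4 8.26, 8.54 and 8.31 against 11.24, 11.01 and 11.15. Both genes were low in all 3 arrays labelled iPS-derived NSC and high in the others, with brain NSC at 9.87 to 10.33 and 10.87 to 11.08. Srebf2, the transcription factor that governs this pathway, was lower by 2.29 ± 0.23, and its escort protein Scap by 1.75 ± 0.26. Between them, the steps from Hmgcs1, lower by 1.43 ± 0.09, and Sqle, by 1.69 ± 0.11, to Cyp51, by 1.98 ± 0.11, and Dhcr7, by 2.20 ± 0.30, were called. Mvk, Mvd and Ebp were not, at -0.81 ± 0.11, -0.92 ± 0.18 and -0.48 ± 0.13. Abca1, which exports cholesterol, was the 1 member called higher, by 1.52 ± 0.16, and that call was lost (0.89) when the probe sets of a gene were averaged.

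Fatty acid synthesis and desaturation showed the same direction, with 14 of 22 lower and a median of -1.48. The desaturases Scd1 and Fads2 read 8.86, 8.69 and 8.38 against 11.96, 12.05 and 11.93 and 8.46, 7.85 and 7.74 against 11.33, 11.26 and 11.20. Acss2, which makes acetyl-CoA from acetate, was lower by 3.45 ± 0.14. The core enzymes Fasn and Acaca were not called, at -0.49 ± 0.15 and -0.71 ± 0.16. Acacb, the mitochondrial acetyl-CoA carboxylase, was higher by 2.23 ± 0.15. Among fatty acid binding and oxidation genes 5 of 22 were lower, with the dehydrogenase Acadl lower by 3.49 ± 0.14 and the binding protein Fabp5 by 3.27 ± 0.10.

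**Figure D3:**
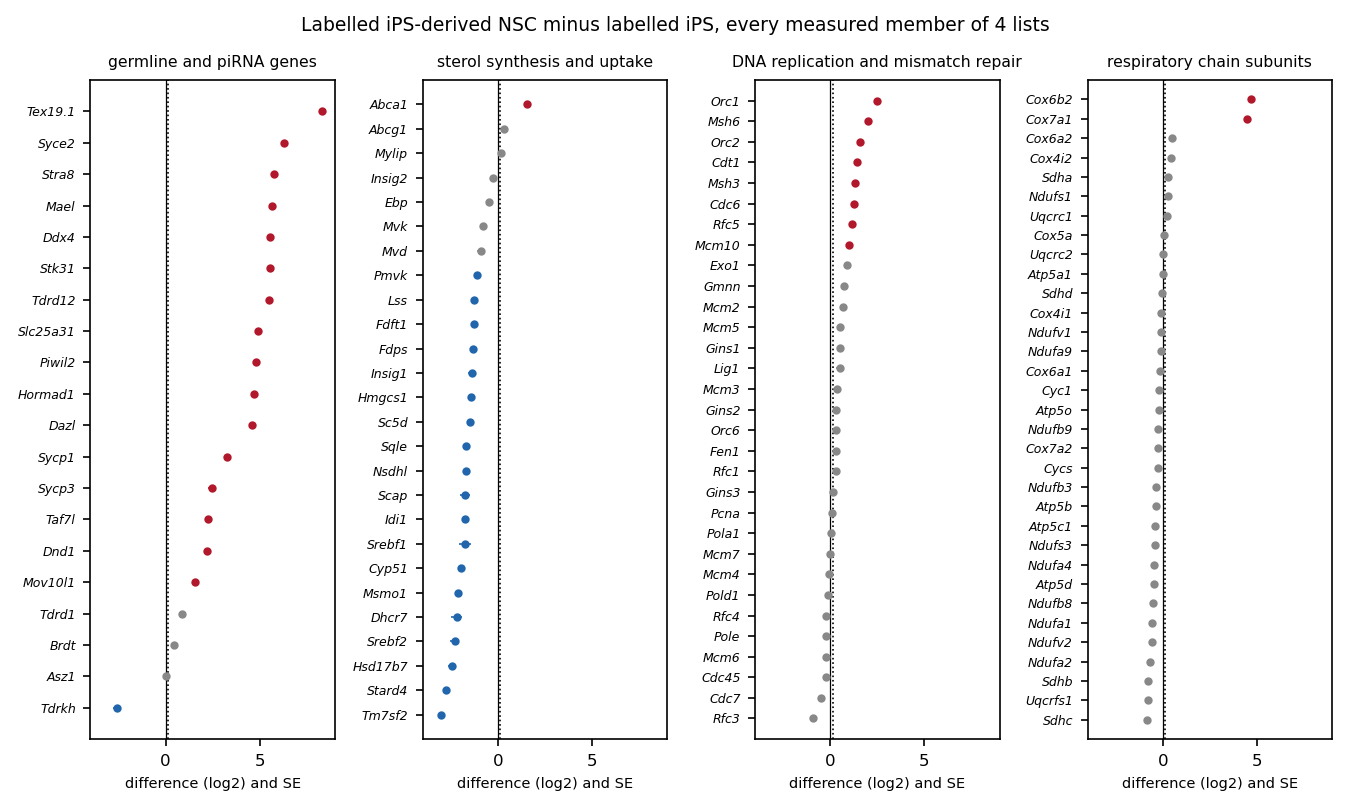
Difference between the arrays labelled iPS-derived NSC and iPS on the log2 scale (points, with SE as bars that are mostly shorter than the point) for every measured member of 4 lists. Red marks genes called higher, blue genes called lower and grey genes not called, with a dotted line at the median of all genes, 0.12. Of the germline genes 16 of 20 lie to the right, of the sterol genes 19 of 26 to the left, and 31 of 33 respiratory chain genes are grey.

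The promoters of the sterol genes were searched as those of the germline genes. The CCAAT box, searched as CCAAT on both strands, was in 20 of 29 sterol promoters (69.0%), against 37.4% of all, and in 14 of the 15 called-lower genes with a promoter. It was also in 58.1% of the DNA replication promoters, and in 35.8% of the promoters of all genes called lower. The sterol regulatory element TCACNCCAC was in 1 of 29, against 1.22% of all promoters. Median GC content was 62.3% in the sterol promoters and 58.3% in all. The 3 called-lower genes with the greatest differences and a match before the start are shown, with capitals on the match, which here reads ATTGG on the gene's strand.
Tm7sf2, chr19:6067866-6067925, minus strand: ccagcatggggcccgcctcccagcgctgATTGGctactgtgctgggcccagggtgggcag
Hsd17b7, chr1:169969339-169969398, minus strand: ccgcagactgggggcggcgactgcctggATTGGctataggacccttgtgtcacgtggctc
Srebf2, chr15:82147106-82147165, plus strand: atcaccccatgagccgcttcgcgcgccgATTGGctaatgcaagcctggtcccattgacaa

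These matches began 47, 165 and 135 bases before the start. Hsd17b7, an enzyme of the later sterol steps, was lower by 2.44 ± 0.23, and by 1.64 without the probe sets that can cross-hybridise.

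In energy metabolism the calls included tissue isoforms of common enzymes. Of 33 respiratory chain subunits, 2 were higher, 0 lower and 31 not called. The 2 were tissue isoforms of cytochrome c oxidase: Cox6b2, the testis form, read 9.42, 9.44 and 9.66 against 4.77, 4.75 and 4.98, and Cox7a1, the heart and muscle form, 8.39, 8.70 and 8.56 against 4.25, 3.92 and 4.11. The groups were far apart in both. In glycolysis 7 of 26 were higher and 4 lower. The glucose transporter Slc2a3 was higher by 5.49 ± 0.26 and Pfkp, the platelet form of phosphofructokinase, by 4.34 ± 0.20. Eno3, the muscle enolase, was higher by 3.40 ± 0.17, and Aldoc, the brain aldolase, read 7.69, 7.16 and 7.20 against 13.52, 13.61 and 13.51. Lactate dehydrogenase Ldha was not called, at -0.17 ± 0.12.

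Amino acid transporters were higher in 6 and lower in 5 of 25. Slc38a4, a neutral amino acid carrier, read 10.66, 10.58 and 10.30 against 3.43, 3.70 and 3.54, and Slc7a3, a carrier of arginine and lysine, 10.49, 10.60 and 10.30 against 5.17, 5.32 and 5.25. Slc38a3, a glutamine carrier of astrocytes, was lower by 3.91 ± 0.22. In nucleotide synthesis 7 of 28 were higher and 2 lower, with Upp1, uridine phosphorylase, higher by 4.59 ± 0.10 and Aprt, a purine salvage enzyme, by 2.18 ± 0.10. The lower ones were Rrm2b, a ribonucleotide reductase subunit, by 1.54 ± 0.12, and Prps2, a phosphoribosyl pyrophosphate synthetase, by 1.01 ± 0.09. Prps2 was not called without replicate 1 or 3 of the arrays labelled iPS or without replicate 1 of the other group (lowest size 0.98). Nor was it called after quantile normalization (-0.88) or with averaged probe sets (-0.44). Glutathione and antioxidant genes were higher in 10 and lower in 9 of 35. Gsta4 was higher by 4.16 ± 0.14, and Mgst1 and Gstm1 were lower by 5.84 ± 0.14 and 4.15 ± 0.12. The other probe set of Mgst1 gave 0.15. Retinoid genes were higher in 7 and lower in 2 of 22, among the former the receptor Rarg by 3.50 ± 0.14 and the binding proteins Crabp1 and Crabp2 by 2.72 ± 0.11 and 2.70 ± 0.13. The retinol dehydrogenase Rdh11 was lower by 3.05 ± 0.11, and the aldehyde dehydrogenase Aldh3b1 by 1.14 ± 0.14, or by 0.97 and not called without replicate 3 of the arrays labelled iPS-derived NSC. Lysosomal genes were lower in 9 and higher in 3 of 26, with cathepsin Ctso lower by 4.90 ± 0.15 and cathepsin Ctsl higher by 2.01 ± 0.10.

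In the nucleus, DNA methylation genes were higher in 7 of 18 and lower in 3, or in 5 when replicate 2 of the arrays labelled iPS was left out. Dnmt3l, a cofactor of the de novo methyltransferases, read 12.15, 11.74 and 11.96 against 4.62, 4.70 and 4.52, and the methyltransferase Dnmt3b 12.78, 12.77 and 12.66 against 6.67, 6.35 and 6.76. Both were separated from every other array. The other enzyme, Dnmt3a, was higher by 4.64 ± 0.10 at its brightest probe set, but its other probe sets ranged over -2.41 to 3.10 and were called in both directions, and its difference was -0.36 to -0.30 when any 1 array labelled iPS-derived NSC was left out. The methyl-CpG binding protein Mbd2 was lower by 2.14 ± 0.12.

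Polycomb and Trithorax genes were higher in 10 and lower in 8 of 31. Epop, a partner of Polycomb complex 2, was higher by 4.71 ± 0.21, and Jarid2 and Mtf2, which bring that complex to chromatin, by 3.05 ± 0.10 and 2.62 ± 0.13. Bmi1, a ring finger subunit of Polycomb complex 1 needed by NSC, read 7.82, 8.08 and 8.0 against 11.78, 11.80 and 11.76. Of 35 BAF and NuRD subunits 6 were higher and 10 lower, and the neural or alternative subunits Smarca2, Smarcd3 and Dpf1 were lower by 3.51 ± 0.10, 2.39 ± 0.15 and 2.03 ± 0.21. Histone demethylases and methyltransferases were higher in 6 of 28, including Kdm4c and Kdm5b by 1.62 ± 0.10 and 1.47 ± 0.10, and the 1 called lower was the methyltransferase Setd7, by 3.53 ± 0.12.

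Cell cycle genes were called in both directions and replication genes in 1. Of 35 cyclins, kinases and inhibitors, 6 were higher and 11 lower. Ccnd2, a G1 cyclin, read 7.10, 6.84 and 6.15 against 13.33, 13.35 and 13.41, with brain NSC at 12.26 to 12.76. The inhibitors Cdkn2c and Cdkn1b were lower by 4.60 ± 0.14 and 3.23 ± 0.22, and so was the pocket protein Rbl2 by 3.05 ± 0.20. Ccne1, the cyclin of S phase entry, was higher by 2.10 ± 0.10. DNA replication genes were higher in 8 of 31 and lower in 0. The rises were in origin recognition and licensing, with Orc1 higher by 2.47 ± 0.10 and Orc2 by 1.55 ± 0.11, in mismatch repair, with Msh6 higher by 1.99 ± 0.13, and in the clamp loader subunit Rfc5, by 1.13 ± 0.09. The helicase subunits Mcm2 to Mcm7 were not called, at differences from -0.24 ± 0.13 (Mcm6) to 0.68 ± 0.11 (Mcm2). The E2F motif TTCCCGC, searched on both strands, was in 13 of 31 replication promoters (41.9%), against 6.71% of all and 6 of the 24 germline promoters. It was found for 3 of the 8 genes called higher. This motif also holds a CpG site, and 87.1% of the replication promoters had a CpG ratio of at least 0.6. Of those 3, the match in Cdc6, a licensing factor higher by 1.25 ± 0.10, lay before the start and is shown for its place, with capitals on the match read from the other strand.
Cdc6, chr11:98907986-98908045, plus strand: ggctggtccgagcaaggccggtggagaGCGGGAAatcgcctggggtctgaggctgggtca

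Growth and stress genes were called in both directions, as were genes at large (10.8% higher and 14.4% lower). Ribosome biogenesis and translation genes were higher in 10 of 30 and lower in 1, with a median of 0.67. The rises were modest: Rrp12, a ribosome export factor, by 1.59 ± 0.15, and Polr1b, a subunit of RNA polymerase I, by 1.39 ± 0.14. The fall was Eif5a2, an isoform of a translation factor, by 2.47 ± 0.13, with -0.004 at its other probe set. Among p53 targets and apoptosis regulators 9 of 33 were higher and 4 lower. Pmaip1, which encodes the death-promoting protein Noxa, read 11.04, 10.89 and 10.82 against 3.92, 3.88 and 3.73, and the survival protein Bcl2 was lower by 3.25 ± 0.17. The small heat shock protein Hspb1 read 14.15, 14.19 and 14.31 against 6.18, 6.27 and 6.42, while Cryab of the same family was lower by 2.19 ± 0.21. Immediate early genes were higher in 4 and lower in 7 of 22, with Jun lower by 3.89 ± 0.17 and the phosphatase Dusp1 higher by 2.06 ± 0.09.

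Nuclear receptors were lower in 14 and higher in 5 of 34. Nr2f1, also called COUP-TF1, read 3.71, 3.74 and 4.10 against 10.22, 9.84 and 10.18, and Rorb, a retinoid-related orphan receptor, was lower by 4.18 ± 0.21. Nr6a1, the germ cell nuclear factor, was higher by 3.11 ± 0.14. Of 26 nuclear lamina and pore genes, 22 were not called.

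Antigen presentation genes were lower or not called. Of 16 genes 5 were lower and 0 higher. B2m, the light chain of MHC class I, read 7.83, 8.02 and 7.64 against 11.10, 11.08 and 11.25, and the heavy chain H2-K1 was lower by 2.58 ± 0.12. Heavy chain genes are near copies of each other, and without the probe sets that can cross-hybridise 3 members were lower and 1 higher. Interferon response genes were higher in 5 and lower in 3 of 25. The membrane proteins Ifitm3 and Bst2 were higher by 3.96 ± 0.14 and 3.92 ± 0.12, and Ifit2 and Tlr3 were lower by 4.37 ± 0.11 and 3.14 ± 0.14. Of the galectins, Lgals3 was higher by 4.59 ± 0.09 and Lgals1 lower by 4.10 ± 0.09.

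Markers of other cells that the cultures could hold were also read. Of 21 fibroblast feeder genes 8 were higher and 2 lower, or 1 lower without replicate 3 of those labelled iPS-derived NSC. The other 11 were not called. The lower genes were Prrx1 (-1.95) and Fbln2 (-1.10), and neither was called with averaged probe sets (-0.58 and -0.49). The collagen Col1a2 read 9.75, 8.56 and 8.02 against 5.84, 6.14 and 5.86. Thy1, a surface protein of fibroblasts, read 6.61, 6.22 and 6.00 against 4.40, 4.68 and 4.47, and Col1a1 7.52, 6.35 and 6.10 against 5.21, 5.23 and 5.28. The groups did not overlap, and within the arrays labelled iPS-derived NSC replicate 1 was the highest and replicate 3 the lowest in all 3 genes. Col1a1 was higher by 1.42 ± 0.26, but by 0.98 and not called when replicate 1 was left out. The mean over the whole list was 6.72, 6.46 and 5.90 in replicates 1, 2 and 3, against 5.56 to 5.61 in the arrays labelled iPS and 5.47 to 5.61 in those labelled brain NSC. Lum and Postn, also fibroblast markers, were not called, at 0.37 ± 0.10 and 0.94 ± 0.19, although Postn was at 1.23 without replicate 3 and was then called. Of 18 microglial and endothelial markers, 2 were higher, near the 10.8% of all genes, and 16 were not called. The 2 were the adhesion protein Pecam1, by 3.68 ± 0.17, which embryonic stem cells also express, and the macrophage protein Cd68, by 1.75 ± 0.19.

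The order of the same 3 arrays differed among matrix genes. Fn1 was 11.99 in replicate 1 and 11.94 in replicate 3, and Col18a1, a basement membrane collagen, 9.89, 9.51 and 10.00 in replicates 1 to 3, and in neither was replicate 3 the lowest. Nid1 and the laminin chain Lama1, given above, and biglycan Bgn, at 8.59, 8.18 and 7.41, were lowest in replicate 3, as was Lox, a collagen crosslinking enzyme of the fibroblast list, at 7.60, 7.64 and 6.41.

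**Figure D4:**
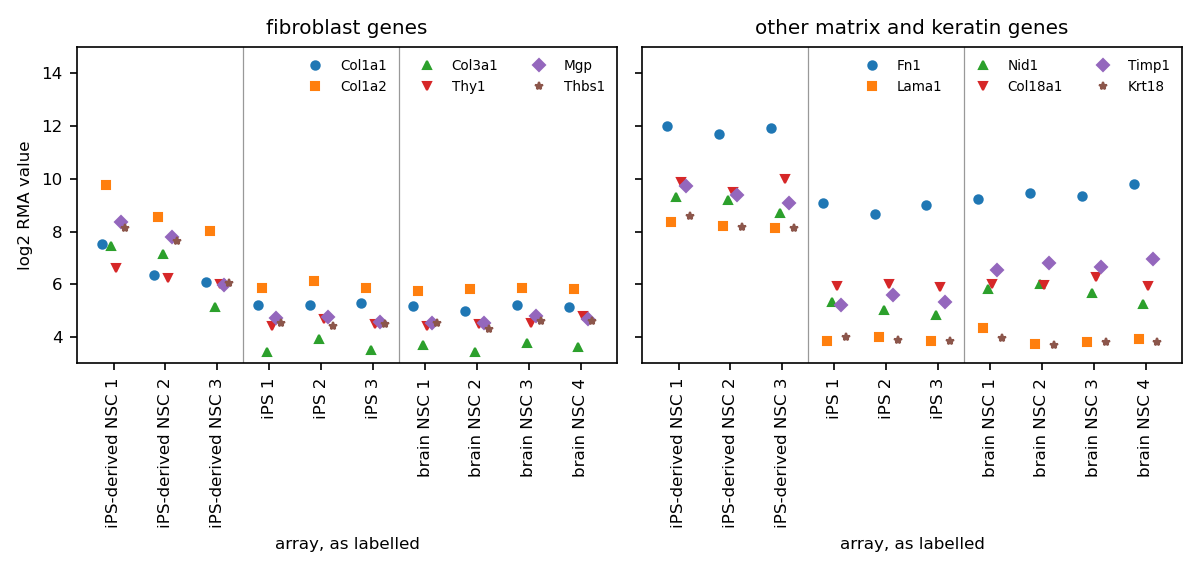
Log2 value in each of the 10 arrays, as labelled. On the left are the fibroblast markers Col1a1, Col1a2, Col3a1 and Thy1 with the matrix genes Mgp and Thbs1, and on the right 6 other matrix and keratin genes. Mgp and Thbs1 are not in the fibroblast list and were picked for their spread within the arrays labelled iPS-derived NSC. Other members of that list are not drawn. Of the arrays labelled iPS-derived NSC, replicate 3 was the lowest for each of the 6 genes on the left, and Fn1 stayed between 11.71 and 11.99. In all other arrays the genes on the left were at or below 6.14.

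Imprinted genes, expressed from 1 parental copy, were higher in 12 and lower in 5 of 32. Phlda2, a growth-restraining gene expressed from the maternal copy, read 10.06, 10.15 and 10.07 against 5.57, 5.83 and 5.56, and Plagl1, a paternally expressed zinc finger gene, 11.40, 11.37 and 11.37 against 7.71, 7.59 and 7.69. Mest, a paternally expressed hydrolase gene, read 10.82, 10.60 and 10.73 against 13.69, 13.75 and 13.72, and Nnat, a paternally expressed gene of the developing brain, was lower by 2.87 ± 0.27. Paternally expressed genes were thus found in both directions. The non-coding RNA Meg3 was higher by 4.85 ± 0.14, but by 2.25 to 2.44 when any 1 array labelled iPS-derived NSC was left out and another of its probe sets was the brightest. Early lineage markers were higher in 9 of 24, with the endoderm factor Gata6 higher by 3.52 ± 0.12 and Sox17 by 2.26 ± 0.17. In the same list 2 were lower, among them Pou3f1, a POU factor of epiblast and brain, whose difference was the greatest of the list, by 3.95 ± 0.12.

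Pairs of genes related by family or by role were read as well, and some of them were called in opposite directions. Of 29 measured pairs, each written with the form known from pluripotent or epithelial cells first, 12 had the first gene called higher and the second lower, and 0 had the reverse. In 4 pairs both genes were called higher, and in 13 at least 1 was not called. The pairs were chosen with these results known, so the count is a description. The D-type cyclins Ccnd3 and Ccnd1 differed by 1.79 ± 0.24 and -2.44 ± 0.10, where the call of Ccnd3 was lost (0.92) when its probe sets were averaged, and the hexokinases Hk2 and Hk1 by 1.83 ± 0.15 and -2.07 ± 0.23. The Polycomb subunits Cbx7 and Cbx6 differed by 3.11 ± 0.11 and -1.70 ± 0.13, and Phc1 and Phc2 by 1.86 ± 0.18 and -2.04 ± 0.13. The other probe sets of Cbx7 gave only 0.31 to 0.62. The spalt-like factors Sall4 and Sall3 differed by 7.67 ± 0.10 and -4.19 ± 0.18. Among fatty acid binding proteins Fabp7 was lower and Fabp3, the heart form, higher by 4.83 ± 0.13, but the other probe set of Fabp3 gave 0.05 and became the brightest when any 1 array labelled iPS-derived NSC was left out, with -0.02 to 0.14. The lamins Lmnb1 and Lmna were both not called, at 0.37 ± 0.23 and 0.52 ± 0.25.

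**Figure D5:**
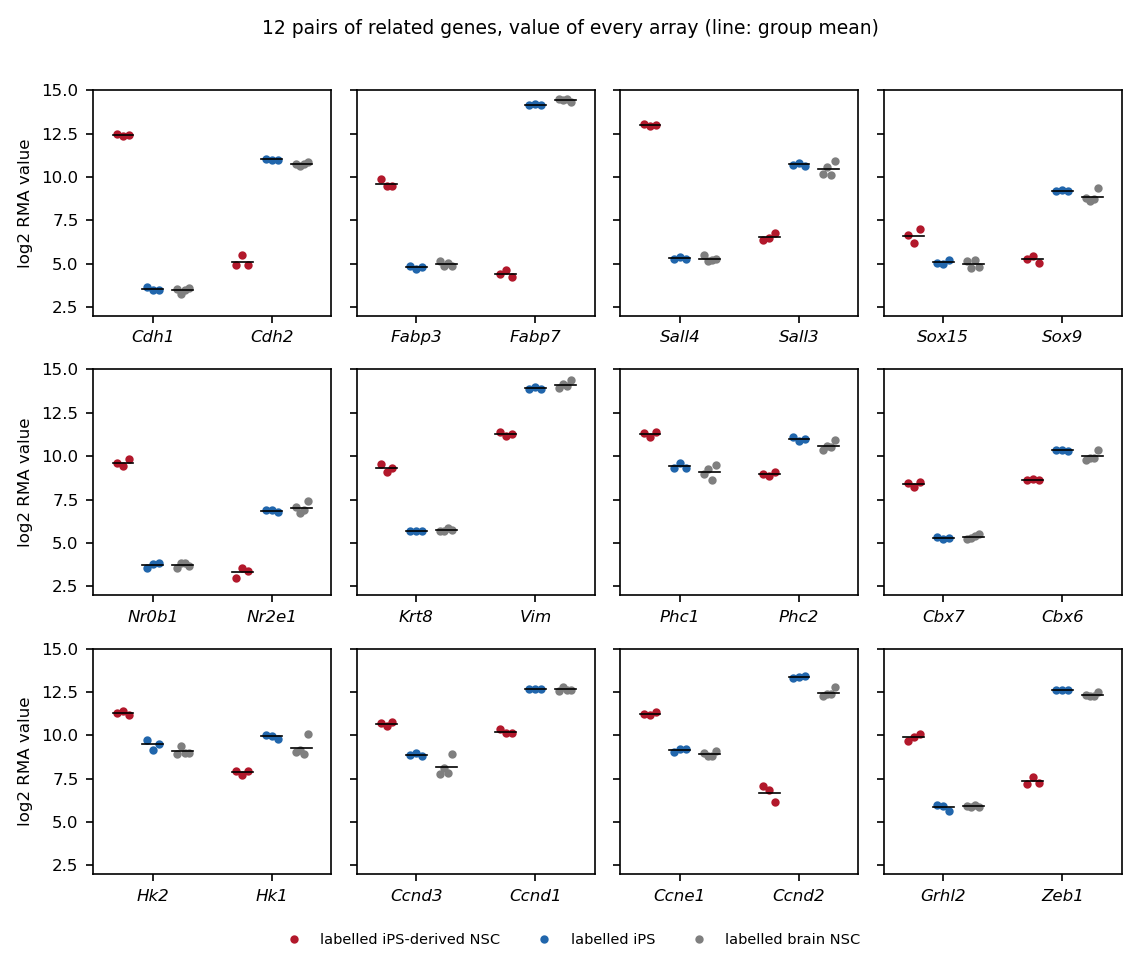
Log2 value of both genes of the 12 pairs in which the first gene was called higher and the second lower, for every array labelled iPS-derived NSC (red), iPS (blue) and brain NSC (grey), with a line at each group mean. In each pair the red points lie above the blue ones for the first gene and below them for the second.

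Some genes varied within a group. In the arrays labelled iPS, where the median within-group SD over all genes was 0.0936, only 9 genes had a range over 1. The pyruvate dehydrogenase kinase Pdk1 read 9.20, 7.20 and 8.48, the mitophagy protein Bnip3 10.37, 8.39 and 9.59 and Slc2a3 8.12, 6.97 and 7.42. All 3 genes were lowest in replicate 2 and highest in replicate 1, and so was the protease inhibitor A2m, at 8.49, 7.30 and 7.68. Pfn1, an actin-binding protein, was the other way, at 10.34, 11.55 and 10.61. In the arrays labelled iPS-derived NSC the median SD was 0.128 and 108 genes had a range over 1, among them the matrix genes Mgp (8.37, 7.80 and 5.98) and Thbs1 (8.12, 7.63 and 6.05), both lowest in replicate 3. Mgp was higher by 2.70 ± 0.41, or 3.41 without that array, and Thbs1 by 2.78 ± 0.36, or 3.39. Ddit4, a stress-induced inhibitor of mTOR, was lowest in replicate 2 there, at 9.17, 7.45 and 8.62. Pdk1 and Slc2a3 were called higher all the same, by 2.86 ± 0.38 and 5.49 ± 0.26, while Bnip3 and Ddit4 were not, at 0.97 ± 0.37 (adjusted p = 0.0351) and -0.74 ± 0.32 (adjusted p = 0.0608, limma). Without replicate 1 of the arrays labelled iPS, Bnip3 differed by 1.43 and was called, and without replicate 1 of those labelled iPS-derived NSC, Ddit4 differed by -1.12 and was called.

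Genes with several probe sets allowed a check within the arrays. Of the 4598 called genes, 2771 had more than 1 probe set. Another probe set was called the same way in 1585 of them and the opposite way in 42, and in 1163 no other one was called. Acadl, Acacb, F11r and Ctso are of this last kind, at -0.17, 0.18, 0.36 and -0.46 at the other probe set. Smaller differences at other probe sets were also found for Mbnl1 (-1.03 to -0.43), Nid1 (0.17 to 1.57), Fzd7 (0.56) and Dpf1 (-0.40). The 42 with an opposite call include Mtm1, a lipid phosphatase. It read 13.73, 13.58 and 13.62 against 5.70, 5.26 and 5.68, but its other probe sets gave -1.48 to 8.0. They also include Ccnc, Dnmt3a, Fgf1 and Jam2. Averaging the probe sets of a gene moved the difference by over 1.5-fold in 172 of the 403 called genes named by the rule, and made it smaller in 162 of them, so the sizes given here belong to the brightest probe set. It also changed some list counts by over 1.5 times. Members called higher went from 7 to 4 among splicing regulators, from 6 to 3 among cyclins and inhibitors, from 3 to 1 among channels and among cadherins, and from 2 to 1 among neural adhesion molecules. Members called lower went from 5 to 3 in the LIF list and among imprinted genes, from 3 to 1 among tight junction genes and from 2 to 0 among feeder genes.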

How the data were processed

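RNA of 10 samples was measured on 10 Affymetrix arrays of 1 design. The series' table holds log2 expression values of 45101 probe sets, deposited by the authors, and per the submitters' processing notes they were made with RMA; its version was not found among these notes. The method corrects background, normalizes the probes between arrays and summarises them per probe set, which compresses the differences of dim genes. The scanner files were not used here. Arrays give no read depth, so the number of arrays limits the precision.

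After 64 control probe sets were removed, 34945 carried 1 gene symbol, 932 several and 9160 none, by the platform annotation. Entrez identifiers matched 34741 of the single-symbol probe sets to RefSeq names, and 0 names changed. The brightest probe set over the 10 arrays stood for each of 18193 genes. Limma 3.58.1 in R 4.3.3 (lmFit, eBayes) was fitted with 1 term for each of the 3 labelled groups over all 10 arrays, so the brain NSC arrays share in the estimate of the spread, and p-values were adjusted by Benjamini-Hochberg over all genes. No gene was filtered out as dim. The fit was tested on simulated data. Python 3.11.15 was used for tables (pandas 2.3.3, numpy 2.4.6) and for figures (matplotlib 3.10.9).

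The comparison and the gene lists were chosen with earlier results of these data known. The rule for named genes took the 12 greatest rises and 12 greatest falls without overlap, up to 4 of each in every list, the related pairs, the markers, the reprogramming factors, and the 5 genes with the greatest SD in each group among those with a mean of at least 7 (429 genes, of which 403 were called). Other genes, such as single steps of the sterol pathway, the germline members beside the leaders and the Mcm subunits, were named after their values were seen. Of 1712 list entries 1594 were measured and 118 were not matched by symbol. Replicate numbers of the titles did not pair the arrays: same-numbered deviations from the group means correlated at -0.07, -0.05 and 0.02. The alternatives tried were 1 probe set summary, 2 normalizations, filters on dim genes and on cross-hybridising probe sets, other fits and tests, and each array left out. Promoters are those of RefSeq on GRCm38.p6, and 14449 genes had 1 or more. Those on chromosome 18 were left out of the sequences shown and of the counts of called list members with a match.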

Additional observations from a re-analysis of the deposited data

Results flagged for a closer look

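Among the 72 genes tested for an array that stands apart from its group, which only the 4 arrays labelled brain NSC were numerous enough to allow, 4 had one. Hk2 read 9.40 in replicate 2 against 8.92 to 8.98 in the others, and Slc1a3, a glutamate transporter of astrocytes, 11.63 in replicate 2 against 11.88 to 11.92. Lamc1, a laminin chain, read 11.05 in replicate 4 against 10.07 to 10.12, and Ptbp2 10.63 in replicate 4 against 10.89 to 10.94. Chance gives about 1 such array in 20 groups.

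Probe sets without a gene symbol were used in no comparison above. Of 9160, 405 were called higher and 369 lower in the arrays labelled iPS-derived NSC, and 23 and 25 of these differed by at least 16-fold.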

How the results depend on the processing

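Genes called higher numbered 1742 to 2273 and genes called lower 2077 to 2802 over 19 alternatives, both within 1.5 times the 1970 and 2628 reported. Leaving out 1 array gave 1940 to 2007 higher and 2567 to 2666 lower, averaging the probe sets of a gene 1757 and 2077, and a second quantile normalization 2215 and 2367. The fit with the replicate number as a block gave 1971 and 2628, and it changed no call of a named gene. It leaves every difference as it was, as do the fit of the 6 arrays alone and that with an intensity trend. Those fits could change a call only through the p-value, so their unchanged calls say little. Leaving out an array labelled brain NSC could move a difference only where another probe set became the brightest. The share of calls that were higher ran from 40.0% to 48.3%, and the median of all genes from 0.07 to 0.13. Of the 403 called genes named by the rule, 356 kept their call in every alternative, 47 lost it in at least 1, 36 of them by averaging probe sets, and 4 changed sign. Of 2318 list counts 51 moved by over 1.5 times.

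The sign turned in 4 called genes, each time with another probe set as the brightest except where probe sets were averaged. Dnmt3a was at -0.075 after quantile normalization and at -0.36 to -0.30 without single arrays labelled iPS-derived NSC, with up to 4.72 without other arrays. Fgf1 was at -0.72 with averaged probe sets, and at -2.41 to -1.76 without single arrays labelled iPS-derived NSC, with up to 1.49 without others. Fabp3 was at -0.020 without replicate 3 of that group, with up to 4.88 without other arrays. Igfbp5 was at 0.047 without replicate 1 of the group labelled iPS and at 0.026 without cross-hybridising probe sets, with down to -4.34 otherwise. It also turned in 3 genes that were not called. Esrrg was at -0.039 and Slc7a10 at -0.036 after quantile normalization, and without 1 array Slc7a10 ranged from -0.038 to 0.19 and Esrrg from 0.0065 to 0.20. Smarcc1 was at -0.035 after centring, and at -0.041 to 0.095 without 1 array. Dim genes can have larger differences than these arrays show.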

Other observations

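Called genes were unevenly spread over the chromosomes, given here as a description. On chromosome 7, 16.7% of 1413 genes were called higher and 8.07% lower, against 10.8% and 14.4% over all genes. On chromosome 14, 8.59% of 640 genes were higher and 20.9% lower, and on chromosome 10, 7.79% were higher and 17.8% lower. On the X chromosome 12.5% of 617 genes were higher and 19.6% lower.

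Promoters of genes called lower were richer in CpG sites than the others. An observed to expected CpG ratio of at least 0.6 was found in 66.9% of their RefSeq promoters, in 58.3% of those of genes called higher and in 51.6% of those of genes not called, and median GC content was 62.3%, 59.0% and 57.3%. The core pluripotency list stood lowest, with 40.0% of 20 promoters at that ratio, and the DNA replication list highest of the 4 lists counted, with 87.1% of 31.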
